A study of Mus musculus with 12 samples.

Results

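Endothelial cells of the thymus with the signal of a Kit ligand reporter were compared with medullary thymic epithelial cells without that signal. Of 12 libraries in the series, 6 entered the comparison, chosen as the sorted populations with the highest and the lowest Kitl RNA. Poly(A) RNA was measured in cells sorted from the thymic stroma of C57 BL6 mice of a KitL-tomato reporter strain. Its tomato fluorescence is meant to mark cells that use the Kitl gene. Tomato+ VEC (vascular endothelial cells, 3 libraries) were live cells without lineage markers that were EpCAM-, CD31+ and td-tomato+. Tomato- mTEC (medullary thymic epithelial cells, 3 libraries) were live cells without lineage markers that were EpCAM+, CD31-, UEA1+, Ly51- and td-tomato-. The groups differed in cell type and in reporter gate together, and these cannot be told apart. All animals carried the reporter. The labels give no age, sex, treatment, number of animals or reporter construction, and whether replicates are separate animals is not stated, so the spread behind each p-value is that of these libraries and may be technical.

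The comparison spans all genes. The table held 23306 gene symbols, 13467 of which passed the filter on low counts and were tested, while 2664 had no count in any of the 6 libraries. Library totals were 8388869 to 11807130 counts. Between 13691 and 14346 genes had a count in a tomato+ VEC library, against 16708 to 17015 in a tomato- mTEC library. Replicates differed by more than sampling noise, with a chi-square per degree of freedom of 117 to 132 between tomato+ VEC libraries and 39.4 to 55.1 between tomato- mTEC libraries. Tomato+ VEC replicate 3 stood apart from its group on the third principal component (10.4% of the variance), at -139 against 67.8 and 58.6 for replicates 1 and 2, which the second component (12.1%) set apart from each other, at 124 and -129. Below, VEC 1 to 3 and mTEC 1 to 3 stand for the replicates of tomato+ VEC and tomato- mTEC where a fit was repeated without one of them. Because RNA was measured in bulk, fewer cells of a type and less RNA per cell cannot be told apart.

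Kitl encodes Kit ligand, which acts through the receptor tyrosine kinase Kit and supports the survival and growth of early blood and T-cell progenitors. Progenitors enter the thymus from blood through endothelium, meet Notch ligands and growth factors, and move later to the medulla. Endothelium lines vessels and is held together by VE-cadherin junctions. Medullary epithelium is a keratin network that displays many tissue-restricted proteins under the control of Aire, so that self-reactive T cells are removed.

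Promoters of 4 genes that mark the comparison are printed from RefSeq (assembly GRCm38.p6), 250 bases before to 50 bases after the annotated start, on the strand of the gene. They are Kitl, by whose RNA the populations were chosen, the vascular receptor gene Kdr from the higher genes, and Aire and Wfdc18 from the lower genes. The windows are Kitl at chr10:100015571-100015870 (plus strand), Kdr at chr5:75978406-75978705 (minus strand), Aire at chr10:78043561-78043860 (minus strand) and Wfdc18 at chr11:83708754-83709053 (plus strand). Capitals mark the letters TATAAA on the strand of the gene, and GGGCGG and GGAAGT on either strand, so that CCGCCC and ACTTCC are the same letters read from the opposite strand.
Kitl: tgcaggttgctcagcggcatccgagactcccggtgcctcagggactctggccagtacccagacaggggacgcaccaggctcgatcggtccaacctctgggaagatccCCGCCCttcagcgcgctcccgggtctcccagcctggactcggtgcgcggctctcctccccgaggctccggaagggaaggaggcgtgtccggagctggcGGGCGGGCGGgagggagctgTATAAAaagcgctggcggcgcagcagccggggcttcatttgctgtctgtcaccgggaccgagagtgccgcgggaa
Kdr: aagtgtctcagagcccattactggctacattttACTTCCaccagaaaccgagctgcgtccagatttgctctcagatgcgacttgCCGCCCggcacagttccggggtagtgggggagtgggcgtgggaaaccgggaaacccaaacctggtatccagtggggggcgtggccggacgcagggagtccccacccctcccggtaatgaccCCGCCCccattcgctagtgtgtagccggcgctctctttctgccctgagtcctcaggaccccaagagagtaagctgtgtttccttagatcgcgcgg
Aire: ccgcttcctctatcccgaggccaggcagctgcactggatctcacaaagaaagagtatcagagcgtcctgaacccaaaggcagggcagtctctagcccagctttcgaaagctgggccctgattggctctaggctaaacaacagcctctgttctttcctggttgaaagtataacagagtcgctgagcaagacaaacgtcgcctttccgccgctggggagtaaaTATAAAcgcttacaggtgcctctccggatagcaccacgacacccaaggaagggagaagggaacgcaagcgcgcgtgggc
Wfdc18: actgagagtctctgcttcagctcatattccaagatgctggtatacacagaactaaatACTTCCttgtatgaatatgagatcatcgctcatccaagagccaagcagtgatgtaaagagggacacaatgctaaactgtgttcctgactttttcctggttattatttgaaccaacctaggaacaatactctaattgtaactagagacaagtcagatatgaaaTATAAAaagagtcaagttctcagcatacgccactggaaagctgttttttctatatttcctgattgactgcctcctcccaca

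The Kitl window held 28 CpG dinucleotides, against 19 for Kdr, 16 for Aire, 2 for Wfdc18 and a median of 7 over 27025 RefSeq promoters of the same length (quartiles 3.0 and 21.0). TATAAA began 25 bases before the start of Kitl, 29 before that of Aire and 31 before that of Wfdc18, and it occurred in 8.88% of all promoters. The Kitl window held 3 matches to GGGCGG, which began 143, 45 and 41 bases before the start and of which the last pair overlap, and the Kdr window held matches at 166 and 45. GGGCGG occurred in 35.9% of all promoters and GGAAGT, seen once in Kdr (at 217) and once in Wfdc18 (at 193), in 24.1%. A match describes letters and is not a binding site.

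Kitl stood at 796, 1499.6 and 758 CPM in tomato+ VEC, against 34.9, 4.42 and 25.7 CPM in tomato- mTEC, where CPM is the read count divided by the TMM-scaled library size in units of 1e+06 reads. Every tomato+ VEC library was above every tomato- mTEC library, and mTEC 2 was the lowest of the 6. The means were 1018 ± 417 CPM in tomato+ VEC and 21.7 ± 15.6 CPM in tomato- mTEC (SD, n = 3 each). Per transcript length, the deposited RPKM of Kitl averaged 172.8 ± 72.6 in tomato+ VEC (rank 519 of the 23306 genes) and 4.30 ± 3.14 in tomato- mTEC (rank 8895). As the populations were chosen for this RNA, these levels are a description, and the p of Kitl in the fit of all genes is not used. Kit, the gene of the receptor, had 7.06, 28.4 and 96.4 CPM in tomato+ VEC, against 45.5, 33.2 and 39.8 CPM in tomato- mTEC. The tomato+ VEC libraries thus spanned the range of the tomato- mTEC libraries (log2 fold 0.15, SE 0.82, edgeR adjusted p = 0.919).

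Across all genes, 4164 of 13467 (30.9%) differed at a Benjamini-Hochberg adjusted p under 0.05 in edgeR's quasi-likelihood test. Tomato+ VEC were higher for 1584 genes (11.8%) and lower for 2580 (19.2%), and the median log2 fold change of all tested genes was -0.11. The libraries of the groups did not overlap for 2534 genes (18.8%) with tomato+ VEC above and 4050 genes (30.1%) with tomato+ VEC below. Log2 fold changes are tomato+ VEC over tomato- mTEC throughout. The differences were large: 3384 of the called genes passed 4-fold and the median absolute log2 fold change of called genes was 5.53. Of the lower genes, 584 had no count in any tomato+ VEC library, whereas 30 of the higher genes had none in any tomato- mTEC library. Such genes passed the filter through the population that has them and had to differ, so the counts describe the libraries and do not rank the populations.

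**Figure D1:**
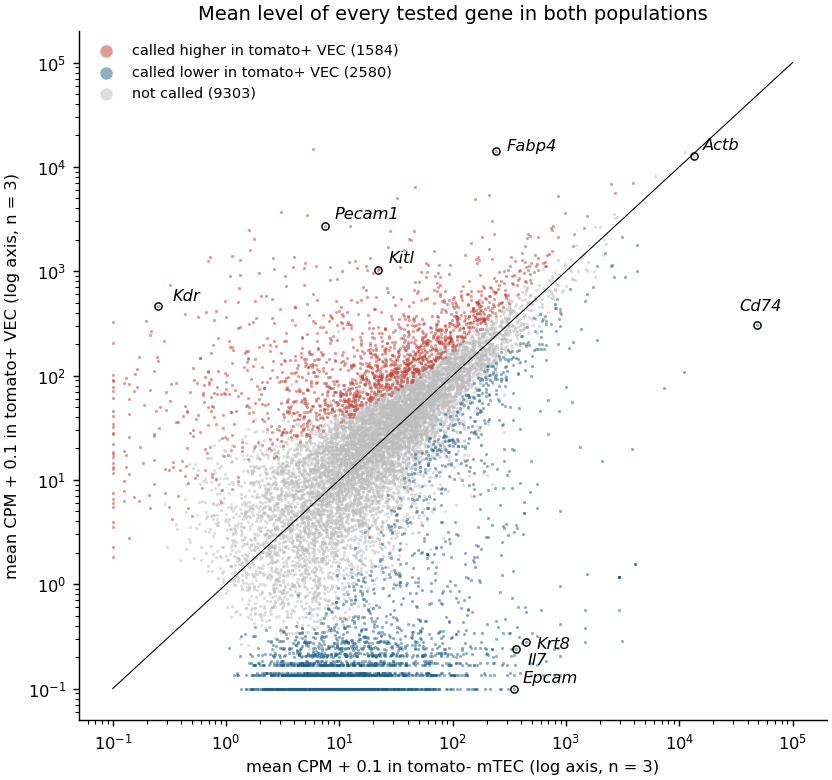
Mean CPM + 0.1 of each tested gene in tomato+ VEC (vertical log axis) and tomato- mTEC (horizontal log axis), 3 libraries each, with genes called higher (1584) and lower (2580) in colour and a line of equal level. The lower genes form a dense band at 0 in tomato+ VEC, and Kitl lies far above the line while Actb lies on it.

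The called genes held much of the RNA in each population. The 1584 higher genes took 47.7 ± 1.52% of all counts in tomato+ VEC and 11.2 ± 0.398% in tomato- mTEC (SD, n = 3 each). The 2580 lower genes took 3.85 ± 0.353% in tomato+ VEC and 33.3 ± 1.14% in tomato- mTEC. These shares describe the calls and are not a further test of them. Per length, the 5 most abundant RNAs of tomato+ VEC were Fabp4 (a fatty acid binding protein, mean RPKM 20267), B2m (the light chain of MHC class I, 15085), Tmsb4x (an actin-sequestering thymosin, 7781), Ly6c1 (a surface marker of endothelium and leukocytes, 6892) and Actb (6238). In tomato- mTEC they were Cd74 (the invariant chain of MHC class II, mean RPKM 36971), Mir5107 (25128), B2m (14070), H2-Aa (11144) and Actb (7708). Mir5107 lies inside Cd74 in the reference annotation, so reads of the 2 genes cannot be told apart.

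Among signals that act on T-cell progenitors, some were higher and some lower in tomato+ VEC. Leaving aside Kitl, of 13 tested genes of that list 3 rose, 5 fell and 5 were not called, with a median log2 fold change of -0.69 against -0.11 over all genes. Over all genes 11.8% rose and 19.2% fell. Among the growth factors, Il7, the cytokine on which thymocyte precursors depend for survival, had 0.102, 0 and 0.314 CPM in tomato+ VEC, against 218, 337 and 536 CPM in tomato- mTEC. It fell in tomato+ VEC (log2 fold -11.17, SE 0.76, edgeR adjusted p = 6.88e-05), opposite to Kitl. The Notch ligand Dll4, which sets the T-cell fate, had 174, 114 and 102 CPM in tomato+ VEC, against 3.32, 5.33 and 0.237 CPM in tomato- mTEC. It rose (log2 fold 5.47, SE 0.98, edgeR adjusted p = 0.00533). No library of either gene crossed into the range of the other population.

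Chemokines of that list went both ways. Cxcl12, which draws and retains Cxcr4-bearing progenitors, had 2008, 1370.4 and 1414 CPM in tomato+ VEC, against 16.1, 29.6 and 65.7 CPM in tomato- mTEC. This gene rose (log2 fold 5.42, SE 0.56, edgeR adjusted p = 0.000501). Ccl25, the ligand of Ccr9, had 0.307, 17.6 and 0.209 CPM in tomato+ VEC, against 458, 460.2 and 351 CPM in tomato- mTEC. It fell (log2 fold -6.15, SE 1.50, edgeR adjusted p = 0.0161), and VEC 2 was far above the other tomato+ VEC libraries. Ccl21a and Ccl19, the Ccr7 ligands that guide thymocytes to the medulla, both fell. Ccl21a averaged 1.46 ± 0.965 CPM in tomato+ VEC and 4049.7 ± 832 CPM in tomato- mTEC. Ccl19 averaged 0.341 ± 0.152 CPM in tomato+ VEC and 241 ± 57.4 CPM in tomato- mTEC (edgeR adjusted p = 2.15e-05 and 2.26e-05). Ccl21a has near-identical copies in the table, so its reads may be divided among them. Bmp4 had 11.9, 4.82 and 12.4 CPM in tomato+ VEC, against 0, 0 and 0.0790 CPM in tomato- mTEC and rose (edgeR adjusted p = 0.00514). This rests on 272 counts in tomato+ VEC and 1 count in tomato- mTEC, a ratio of 320 with a 95% counting interval of 57 to 12700. With the 12 libraries scaled together, Bmp4 stood at 9.89 ± 4.27 CPM for tomato+ VEC. It stood at 101 ± 27.9 CPM for tomato- VEC, endothelium without reporter signal, and at 18.3 ± 5.15 CPM for tomato+ cTEC, cortical epithelium with it. Dll4 stood at 133 ± 38.9 CPM for tomato+ VEC and 102 ± 42.4 CPM for tomato- VEC, and the libraries overlapped. Cxcl12 stood at 1633 ± 353 CPM for tomato+ VEC and 120 ± 10.8 CPM for tomato- VEC, without overlap. Wnt4, an inducer of Foxn1, fell (edgeR adjusted p = 0.00223). It had 0, 0.127 and 0 CPM in tomato+ VEC, against 21.1, 31.0 and 25.1 CPM in tomato- mTEC. Dll1, Il15, Flt3l, Tslp and Igf1 were not called (edgeR adjusted p of 0.276, 0.505, 0.515, 0.594 and 0.196), and Fgf7 was too low to test.

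**Figure D2:**
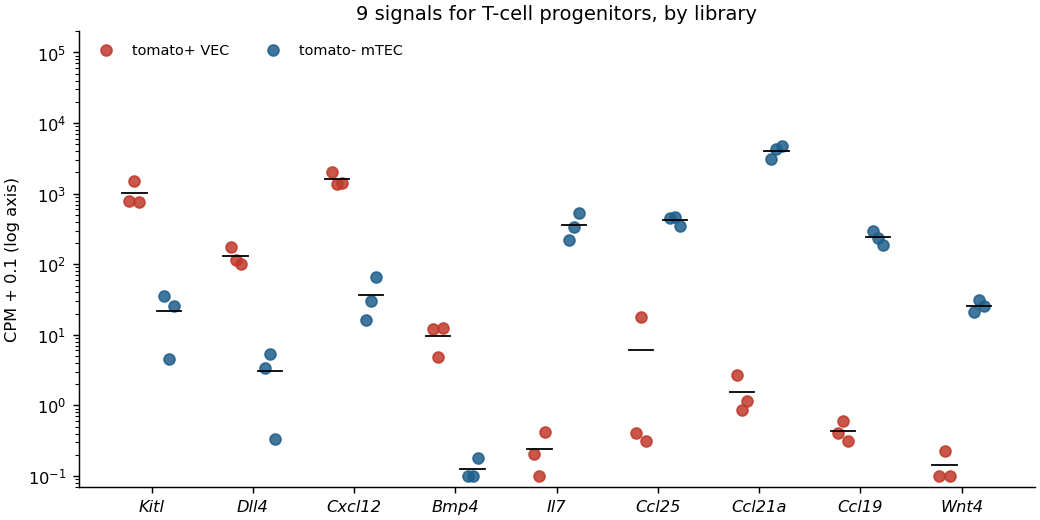
CPM + 0.1 (log axis) of Kitl, by whose RNA the populations were chosen, and of the 8 called progenitor signals in each of 3 tomato+ VEC and 3 tomato- mTEC libraries, with a bar at each mean. Kitl, Dll4, Cxcl12 and Bmp4 sit higher in tomato+ VEC, and Il7, Ccl25, Ccl21a, Ccl19 and Wnt4 sit lower.

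All 20 junction and receptor genes of endothelium were higher in tomato+ VEC (100%, against 11.8% over all genes), with a median log2 fold change of 8.11. Pecam1, which encodes the CD31 used for the sort, had 2601, 2306 and 3272 CPM in tomato+ VEC, against 7.49, 12.6 and 2.05 CPM in tomato- mTEC. The gate on CD31 largely set this difference, so it is a description. Cdh5, the VE-cadherin of endothelial adherens junctions, had 1395, 1562 and 893 CPM in tomato+ VEC, against 0.379, 2.61 and 0.711 CPM in tomato- mTEC (log2 fold 10.06, SE 0.76, edgeR adjusted p = 0.000104). The claudin of endothelial tight junctions, Cldn5, averaged 265 ± 44.3 CPM in tomato+ VEC and 0.117 ± 0.118 CPM in tomato- mTEC. The sialomucin Emcn averaged 2032 ± 317 CPM in tomato+ VEC and 1.66 ± 2.59 CPM in tomato- mTEC. The summed level of the list, Pecam1 included, was 17500 to 18100 CPM in tomato+ VEC and 114 to 180 CPM in tomato- mTEC. Markers that were not gated on, such as Cdh5 and Emcn, were also abundant in the libraries labelled as endothelium. Of the 20 calls, 19 remained in each of the 6 fits that left out a library, and the other was Vwf without VEC 1, VEC 3, mTEC 2 or mTEC 3 (edgeR adjusted p up to 0.106).

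Transcription factors of endothelium followed with 18 of 19 tested members higher (94.7%, against 11.8% over all genes), a median log2 fold change of 6.14 and none lower. The 2 genes at 0 in tomato- mTEC had to differ once they passed the filter. The ETS factor Fli1 had 1458, 1639 and 1115 CPM in tomato+ VEC, against 0.379, 1.47 and 1.26 CPM in tomato- mTEC (log2 fold 10.39, SE 0.53, edgeR adjusted p = 2.37e-05). Epas1, the hypoxia-inducible factor of endothelium, had 1695, 1506 and 835 CPM in tomato+ VEC, against 3.41, 1.13 and 3.00 CPM in tomato- mTEC (log2 fold 9.04, SE 0.56, edgeR adjusted p = 4.53e-05). The shear-stress factor Klf2 averaged 569 ± 222 CPM in tomato+ VEC and 17.6 ± 10.7 CPM in tomato- mTEC (log2 fold 5.01, SE 0.65, edgeR adjusted p = 0.0014). Hhex, a homeobox gene of early endothelium, had 94.1, 132 and 45.9 CPM in tomato+ VEC and no count in tomato- mTEC. It was at least 942-fold higher at a floor of 3 counts over the group (edgeR adjusted p = 0.000732). Erg, another ETS factor, was low in both populations (mean 5.84 CPM in tomato+ VEC, 1.01 CPM in tomato- mTEC) and was not called (edgeR adjusted p = 0.291). The call of 1 factor depended on the libraries, that of Tal1 without VEC 1, VEC 2, mTEC 2 or mTEC 3 (edgeR adjusted p up to 0.06).

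Receptors for vascular growth factors were higher, their ligands mostly not. Of 14 tested genes, 8 rose (57.1%, against 11.8% over all genes) and 1 fell (7.14%, against 19.2%). Kdr, the main signalling receptor for VEGF-A, had 532, 438 and 418 CPM in tomato+ VEC, against 0, 0.454 and 0 CPM in tomato- mTEC (log2 fold 11.67, SE 0.87, edgeR adjusted p = 1e-04). Flt1, another VEGF receptor, averaged 529 ± 123 CPM in tomato+ VEC and 6.30 ± 4.10 CPM in tomato- mTEC. The co-receptor Nrp1 averaged 1347 ± 139 CPM in tomato+ VEC and 18.7 ± 4.81 CPM in tomato- mTEC (log2 fold 6.17, SE 0.29, edgeR adjusted p = 1.74e-05). The angiopoietin receptor gene Tek averaged 698 ± 218 CPM in tomato+ VEC and 16.1 ± 7.36 CPM in tomato- mTEC (log2 fold 5.44, SE 0.45, edgeR adjusted p = 0.000176). Its agonist ligand Angpt1 went the other way, with 0.102, 0.254 and 0.209 CPM in tomato+ VEC, against 15.5, 21.0 and 14.4 CPM in tomato- mTEC (log2 fold -6.41, SE 0.98, edgeR adjusted p = 0.00281). The antagonist Angpt2 (mean 32.3 CPM in tomato+ VEC, 36.1 CPM in tomato- mTEC, edgeR adjusted p = 0.851) and Vegfa (mean 14.7 CPM in tomato+ VEC, 11.4 CPM in tomato- mTEC, edgeR adjusted p = 0.768) were not called. Vegfc (mean 45.8 CPM in tomato+ VEC, 3.47 CPM in tomato- mTEC) rose, but not with all 12 libraries in the fit (edgeR adjusted p = 0.0579). The call of Flt4, the VEGF-C receptor gene, was lost without mTEC 2 (edgeR adjusted p up to 0.052).

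Genes of vessel segments were mixed. Of 13 tested arterial genes 6 rose (46.2%) and 1 fell (7.69%), with a median log2 fold change of 2.85. Of 10 venous genes 7 rose (70%) and 1 fell (10%), with a median of 2.84. Over all genes 11.8% rose and 19.2% fell. The arterial ephrin Efnb2 averaged 496 ± 110.4 CPM in tomato+ VEC and 68.8 ± 22.3 CPM in tomato- mTEC (log2 fold 2.85, SE 0.32, edgeR adjusted p = 0.000741). The arterial factor Sox17 had 88.2, 117 and 48.1 CPM in tomato+ VEC, against 0, 0 and 0.0790 CPM in tomato- mTEC (edgeR adjusted p = 0.000208). Nr2f2, which sets venous identity, averaged 96.5 ± 60.4 CPM in tomato+ VEC and 3.39 ± 1.30 CPM in tomato- mTEC (log2 fold 4.82, SE 0.66, edgeR adjusted p = 0.00179). Darc (now Ackr1), the chemokine receptor of venules, averaged 166 ± 128 CPM in tomato+ VEC and 2.93 ± 4.03 CPM in tomato- mTEC (log2 fold 5.79, SE 1.22, edgeR adjusted p = 0.00903). Genes of both classes were thus higher than in tomato- mTEC, and the gate named no vessel type. The endothelial populations differed, with the 12 libraries scaled together. Darc stood at 170 ± 132 CPM for tomato+ VEC and 2886 ± 736 CPM for tomato- VEC, and Nr2f2 at 99.0 ± 62.6 and 487 ± 50.7 CPM. Efnb2 stood at 507 ± 109 CPM for tomato+ VEC and 59.1 ± 30.4 CPM for tomato- VEC, and Sox17 at 86.5 ± 35.9 and 18.1 ± 7.27 CPM. Madcam1, a mucosal addressin, was the venous gene that fell, with 0, 0 and 0.105 CPM in tomato+ VEC, against 108, 45.3 and 11.1 CPM in tomato- mTEC (edgeR adjusted p = 0.00201). The arterial gene that fell was Gja4 (mean 80.8 CPM in tomato+ VEC, 186 CPM in tomato- mTEC), and its call was lost without any 1 mTEC library or VEC 2 (edgeR adjusted p up to 0.0802). With all 12 libraries in the fit it was lost as well (edgeR adjusted p = 0.595). The lymphatic marker Prox1 was too low to test, at 0.205, 0 and 0 CPM in tomato+ VEC, against 3.03, 0 and 0.237 CPM in tomato- mTEC. Of 6 tested lymphatic genes 5 fell (83.3%, against 19.2% over all genes) and Flt4 rose. The median log2 fold change was -6.88 (-5.30 with the gene at 0 set to its bound). Pdpn, which epithelium also expresses, had 0.102, 0.381 and 0.105 CPM in tomato+ VEC, against 139, 194 and 389 CPM in tomato- mTEC (log2 fold -10.24, SE 0.73, edgeR adjusted p = 8.3e-05). The count of lower lymphatic genes was 2 without VEC 2 or without VEC 3, and 3 without VEC 1.

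Genes of capillary lipid uptake and caveolae had the highest summed level of the endothelial lists. They took 4.25 ± 0.338% of all counts in tomato+ VEC and 0.120 ± 0.00466% in tomato- mTEC (SD, n = 3 each). Of the 15 genes 14 were higher (93.3%, against 11.8% over all genes), with a median log2 fold change of 6.54. The fatty acid translocase gene Cd36 had 17134, 15573 and 12241 CPM in tomato+ VEC, against 2.37, 14.0 and 0.868 CPM in tomato- mTEC (log2 fold 11.38, SE 1.19, edgeR adjusted p = 0.00051). Fabp4 had 14900, 15554 and 11782 CPM in tomato+ VEC, against 228, 267 and 225 CPM in tomato- mTEC (log2 fold 5.88, SE 0.22, edgeR adjusted p = 5.68e-06). Gpihbp1, the anchor of lipoprotein lipase on capillaries, had 2346, 1998 and 3114 CPM in tomato+ VEC, against 1.23, 2.50 and 0.711 CPM in tomato- mTEC (log2 fold 10.74, SE 0.56, edgeR adjusted p = 2.51e-05). Among caveolar genes, Cav1 averaged 5056 ± 283 CPM in tomato+ VEC and 32.3 ± 14.7 CPM in tomato- mTEC (log2 fold 7.29, SE 0.40, edgeR adjusted p = 3.01e-05). Plvap, of fenestral diaphragms, averaged 317 ± 57.2 CPM in tomato+ VEC and 2.55 ± 0.969 CPM in tomato- mTEC. Fabp5 was the member that fell, at 269 ± 29.8 CPM in tomato+ VEC and 604 ± 65.3 CPM in tomato- mTEC (log2 fold -1.17, SE 0.20, edgeR adjusted p = 0.00406). Calls were lost for Lpl without VEC 1, VEC 2, mTEC 2 or mTEC 3 (edgeR adjusted p up to 0.0897) and for Pparg without VEC 1 or mTEC 1 (edgeR adjusted p up to 0.0559).

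Anticoagulant and vascular tone genes rose in 9 of 11 tested cases (81.8%, against 11.8% over all genes), with a median log2 fold change of 4.53. Thbd, the thrombin receptor that starts protein C activation, had 1223, 1202 and 674 CPM in tomato+ VEC, against 13.0, 20.1 and 19.4 CPM in tomato- mTEC (log2 fold 5.88, SE 0.36, edgeR adjusted p = 4.34e-05). Tfpi, the inhibitor of tissue factor, averaged 169 ± 57.0 CPM in tomato+ VEC and 10.7 ± 2.37 CPM in tomato- mTEC (log2 fold 3.99, SE 0.39, edgeR adjusted p = 0.000379). Nos3, the endothelial nitric oxide synthase, averaged 49.6 ± 14.8 CPM in tomato+ VEC and 0.669 ± 0.664 CPM in tomato- mTEC (log2 fold 6.20, SE 1.27, edgeR adjusted p = 0.00824). Procr (edgeR adjusted p = 0.696) was not called. Leaving out a library ended the calls of Entpd1 without mTEC 3 (edgeR adjusted p up to 0.0549) and Edn1 without mTEC 2 (edgeR adjusted p up to 0.0516).

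Sphingosine 1-phosphate is the lipid that guides mature thymocytes out into blood. Of 9 tested genes that make, move, sense or degrade it, 4 rose and 4 fell. These shares are 44.4% each, against 11.8% higher and 19.2% lower over all genes. Receptors and phosphatases were found in both directions, and the median log2 fold change was 0.32. The receptor gene S1pr1 had 893, 999 and 652 CPM in tomato+ VEC, against 11.5, 6.92 and 9.71 CPM in tomato- mTEC (log2 fold 6.50, SE 0.33, edgeR adjusted p = 2.37e-05). Spns2, the endothelial exporter of the lipid, averaged 66.8 ± 7.72 CPM in tomato+ VEC and 0.871 ± 0.773 CPM in tomato- mTEC (log2 fold 6.27, SE 1.20, edgeR adjusted p = 0.00664). The receptor gene S1pr3 had 0.512, 0 and 0.943 CPM in tomato+ VEC, against 91.4, 154 and 161 CPM in tomato- mTEC (log2 fold -8.05, SE 0.92, edgeR adjusted p = 0.000767). The phosphatase gene Sgpp1 averaged 2.89 ± 4.64 CPM in tomato+ VEC and 306 ± 86.0 CPM in tomato- mTEC (log2 fold -6.76, SE 1.36, edgeR adjusted p = 0.00792). The surface phosphatases Ppap2a and Ppap2b rose by 3.20 and 3.31 on the log2 scale (edgeR adjusted p = 0.000127 and 8.76e-05). The count of lower genes was 2 without mTEC 2 or without mTEC 3. Leave-one-out fits ended the calls of Sphk1 without any 1 mTEC library or VEC 1 (edgeR adjusted p up to 0.149) and Sgpl1 without VEC 2, mTEC 2 or mTEC 3 (edgeR adjusted p up to 0.0668).

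Adhesion molecules by which progenitors settle were higher in 7 of 11 tested cases (63.6%, against 11.8% over all genes). The 1 lower gene was Madcam1 (9.09%, against 19.2%). Icam2 averaged 724 ± 104 CPM in tomato+ VEC and 3.29 ± 0.462 CPM in tomato- mTEC (log2 fold 7.78, SE 0.28, edgeR adjusted p = 5.68e-06). Cd34 averaged 2693 ± 521 CPM in tomato+ VEC and 12.4 ± 13.6 CPM in tomato- mTEC (log2 fold 7.78, SE 1.16, edgeR adjusted p = 0.0025). Podxl, a sialomucin like Cd34, averaged 393 ± 239 CPM in tomato+ VEC and 0.337 ± 0.306 CPM in tomato- mTEC (log2 fold 10.21, SE 0.82, edgeR adjusted p = 0.000146). Vcam1 and Icam1, the ligands of leukocyte integrins, were not called. Vcam1 had 304, 473 and 803 CPM in tomato+ VEC, against 485, 552 and 592 CPM in tomato- mTEC (edgeR adjusted p = 0.947). Icam1 had 501, 379 and 381 CPM in tomato+ VEC, against 443, 590.2 and 413 CPM in tomato- mTEC (edgeR adjusted p = 0.574). The libraries of the groups overlapped for both genes. The selectin genes Selp and Sele were higher, and their calls depended on the libraries. They were lost for Selp without VEC 2, VEC 3, mTEC 1 or mTEC 2 (edgeR adjusted p up to 0.129) and for Sele without VEC 2, VEC 3 or mTEC 3 (edgeR adjusted p up to 0.0782).

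Of 16 tested Notch pathway genes 6 rose (37.5%, against 11.8% over all genes), 3 fell (18.8%, against 19.2%) and 7 were not called, with a median log2 fold change of 1.64. Notch1 had 192, 138 and 219 CPM in tomato+ VEC, against 35.6, 46.5 and 39.4 CPM in tomato- mTEC (log2 fold 2.18, SE 0.30, edgeR adjusted p = 0.00167). Notch4, the endothelial receptor gene, averaged 55.6 ± 42.0 CPM in tomato+ VEC and 0.534 ± 0.654 CPM in tomato- mTEC (log2 fold 6.63, SE 1.34, edgeR adjusted p = 0.00791). Notch2 had 9.00, 14.5 and 13.0 CPM in tomato+ VEC, against 271, 328 and 345 CPM in tomato- mTEC and fell (log2 fold -4.70, SE 0.31, edgeR adjusted p = 5.65e-05). The ligand Jag1 was abundant in both populations (488 ± 48.5 CPM in tomato+ VEC and 321 ± 72.8 CPM in tomato- mTEC) and was not called (edgeR adjusted p = 0.0886). The target Hes1 rose (log2 fold 2.04, SE 0.45, edgeR adjusted p = 0.0108), whereas the target Heyl fell (log2 fold -5.27, SE 1.00, edgeR adjusted p = 0.00659). Calls were lost for Nrarp without VEC 1, mTEC 2 or mTEC 3 (edgeR adjusted p up to 0.074) and for Notch3 without any 1 of the 6 libraries (edgeR adjusted p up to 0.131).

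Of the BMP and TGF-beta receptor genes, Acvrl1 and Tgfbr2 were higher in tomato+ VEC, and Bmpr2 and Tgfbr1 were not called (edgeR adjusted p = 0.0984 and 0.965). Acvrl1, the endothelial receptor of BMP9, averaged 94.9 ± 57.1 CPM in tomato+ VEC and 0.0316 ± 0.0547 CPM in tomato- mTEC (edgeR adjusted p = 0.00034). Tgfbr2 averaged 306 ± 89.9 CPM in tomato+ VEC and 12.7 ± 6.14 CPM in tomato- mTEC (log2 fold 4.60, SE 0.49, edgeR adjusted p = 0.000572). The targets Id1 and Id3 rose by 2.99 and 1.72 on the log2 scale (edgeR adjusted p = 0.00588 and 0.00659). Id2 averaged 332 ± 30.8 CPM in tomato+ VEC and 619.7 ± 72.0 CPM in tomato- mTEC and fell (log2 fold -0.90, SE 0.19, edgeR adjusted p = 0.00915). Of 15 tested genes 7 rose (46.7%, against 11.8% over all genes), 2 fell (13.3%, against 19.2%) and 6 were not called. Their median log2 fold change was 2.05. Left-out libraries ended the calls of Bmp6 without VEC 3, mTEC 1 or mTEC 3 (edgeR adjusted p up to 0.0787), Smad6 without any 1 mTEC library or VEC 1 (edgeR adjusted p up to 0.0693) and Bmper without VEC 1 (edgeR adjusted p up to 0.0688). Guidance genes rose in 7 of 14 tested cases (50%, against 11.8% over all genes) and fell in 1 (7.14%, against 19.2%). Their median log2 fold change was 2.12. The ephrin gene Efna1 averaged 544 ± 42.6 CPM in tomato+ VEC and 101 ± 1.78 CPM in tomato- mTEC (log2 fold 2.42, SE 0.19, edgeR adjusted p = 0.00013). The semaphorin gene Sema6a averaged 165 ± 12.2 CPM in tomato+ VEC and 18.6 ± 4.52 CPM in tomato- mTEC (log2 fold 3.15, SE 0.32, edgeR adjusted p = 0.000484). The semaphorin receptor gene Plxnb1 was the 1 that fell, with 0, 0.127 and 0 CPM in tomato+ VEC, against 25.5, 67.8 and 79.4 CPM in tomato- mTEC (edgeR adjusted p = 0.00077). The count of lower guidance genes was 2 without VEC 1, VEC 3 or mTEC 3.

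Matrix genes include chains of vascular and of epithelial basement membrane. Of 17 tested genes 11 rose (64.7%, against 11.8% over all genes) and 2 fell (11.8%, against 19.2%). Their median log2 fold change was 3.12. The type IV collagen chains Col4a1 and Col4a2 were higher. Col4a1 averaged 1857 ± 134 CPM in tomato+ VEC and 144 ± 33.0 CPM in tomato- mTEC (log2 fold 3.69, SE 0.24, edgeR adjusted p = 5.29e-05). Col4a2 averaged 982 ± 50.7 CPM in tomato+ VEC and 59.1 ± 18.8 CPM in tomato- mTEC (log2 fold 4.05, SE 0.28, edgeR adjusted p = 7.64e-05). The laminin chains of vessels, Lama4 (210.4 ± 29.7 CPM in tomato+ VEC and 30.8 ± 16.9 CPM in tomato- mTEC) and Lamb2 (97.4 ± 40.7 CPM in tomato+ VEC and 4.60 ± 0.959 CPM in tomato- mTEC), were higher (edgeR adjusted p = 0.00488 and 0.000795). Lamb3, a chain of the epithelial laminin that anchors keratinocytes, had 0.614, 0.127 and 0.314 CPM in tomato+ VEC, against 24.6, 21.1 and 50.1 CPM in tomato- mTEC and fell (log2 fold -6.43, SE 0.97, edgeR adjusted p = 0.00266). Its partner Lama3 (mean 62.4 CPM in tomato+ VEC, 139 CPM in tomato- mTEC) also fell and Fn1 (mean 217 CPM in tomato+ VEC, 72.8 CPM in tomato- mTEC) rose. Calls were lost for Lama3 without mTEC 2 or mTEC 3 (edgeR adjusted p up to 0.0655) and for Fn1 without mTEC 2 (edgeR adjusted p up to 0.0564). With all 12 libraries in the fit both were lost as well (edgeR adjusted p = 0.308 for Lama3 and 0.0995 for Fn1). Without mTEC 2 or mTEC 3 the count of lower matrix genes was 1. Among integrins, Itga1, Itga5 and Itgb1 rose (log2 fold changes 4.92, 4.92 and 2.01; edgeR adjusted p = 0.0034, 0.00259 and 0.000645). Itgb6, which occurs on epithelium, had no count in tomato+ VEC and 26.5, 36.7 and 14.8 CPM in tomato- mTEC (edgeR adjusted p = 0.0034). Itgb8 had no count in tomato+ VEC and 2.18, 5.10 and 12.6 CPM in tomato- mTEC (edgeR adjusted p = 0.00991). Both genes, at 0 in tomato+ VEC, had to differ once they passed the filter. The call of Itgb8 was lost with the replicate number as a block (edgeR adjusted p = 0.0576). Of 13 tested integrins 4 rose (30.8%, against 11.8% over all genes). As lower, 3 were called (23.1%, near the 19.2% over all genes), or 5 genes without VEC 3. The median log2 fold change was -0.05. Of the higher calls, 1 was lost, for Itga2 without any 1 mTEC library or VEC 3 (edgeR adjusted p up to 0.0626).

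Tomato+ VEC had more RNA of genes often used to mark a mesenchymal state. Of 6 tested genes 4 were higher (66.7%, against 11.8% over all genes) and 1 lower (16.7%, near the 19.2% over all genes). Vim, an intermediate filament, averaged 1299 ± 146 CPM in tomato+ VEC and 224 ± 25.2 CPM in tomato- mTEC (log2 fold 2.53, SE 0.20, edgeR adjusted p = 0.000116). Zeb1 averaged 118 ± 58.8 CPM in tomato+ VEC and 4.12 ± 2.22 CPM in tomato- mTEC (log2 fold 4.84, SE 0.67, edgeR adjusted p = 0.00183). Tcf4 averaged 951 ± 92.1 CPM in tomato+ VEC and 74.4 ± 23.1 CPM in tomato- mTEC (log2 fold 3.68, SE 0.28, edgeR adjusted p = 0.000109). Snai1 rose as well (log2 fold 6.23, SE 1.27, edgeR adjusted p = 0.00817), and Snai2 was not called (edgeR adjusted p = 0.845). The N-cadherin gene Cdh2 had no count in tomato+ VEC and 5.88, 6.81 and 12.2 CPM in tomato- mTEC (edgeR adjusted p = 0.00645). At 0 in tomato+ VEC, it had to differ once it passed the filter. Its call was lost with the replicate number as a block (edgeR adjusted p = 0.0518).

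The epithelial genes were close to 0 in tomato+ VEC. Epcam, whose protein was used for the sort, had no count in tomato+ VEC and 333, 359 and 345 CPM in tomato- mTEC, at least 3130-fold lower. The gate set its direction, so these levels are a description and its p is not used. Of 16 tested adherens and tight junction genes, Epcam included, 11 fell (68.8%, against 19.2% over all genes) and 2 rose (12.5%, against 11.8%). The median log2 fold change was -9.19, or -8.16 with genes at 0 set to their bound. The 4 genes at 0 in tomato+ VEC had to differ once they passed the filter. E-cadherin (Cdh1) had 0.102, 0 and 0 CPM in tomato+ VEC, against 151, 225 and 205 CPM in tomato- mTEC (edgeR adjusted p = 3.68e-05). The claudin gene Cldn7 had 0, 0 and 0.105 CPM in tomato+ VEC, against 62.3, 81.6 and 71.7 CPM in tomato- mTEC (edgeR adjusted p = 0.000217). The 2 that rose are not specific to epithelium. The scaffold gene Tjp1 (ZO-1) had 497, 461 and 266 CPM in tomato+ VEC, against 24.9, 27.6 and 17.2 CPM in tomato- mTEC (log2 fold 4.13, SE 0.35, edgeR adjusted p = 0.000201). F11r (JAM-A) had 843, 622 and 824 CPM in tomato+ VEC, against 277, 272 and 296 CPM in tomato- mTEC (log2 fold 1.44, SE 0.20, edgeR adjusted p = 0.00179). Because of them the summed level of the list was 1130 to 1490 CPM in tomato+ VEC and 1270 to 1410 CPM in tomato- mTEC.

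Of 11 tested keratins, the intermediate filaments of epithelium, 9 fell (81.8%, against 19.2% over all genes) and none rose. The list summed to 9.01 to 49.5 CPM in tomato+ VEC and 5910 to 7240 CPM in tomato- mTEC. The tested keratins thus passed the filter mainly through tomato- mTEC, so their direction was largely set beforehand. Krt17 had 0.307, 0.254 and 0.838 CPM in tomato+ VEC, against 2648, 3007 and 3165 CPM in tomato- mTEC (log2 fold -12.56, SE 0.46, edgeR adjusted p = 5.68e-06). Krt5 had 0.614, 0.254 and 0.524 CPM in tomato+ VEC, against 523, 633 and 656 CPM in tomato- mTEC (log2 fold -10.28, SE 0.38, edgeR adjusted p = 5.68e-06). Krt8 had 0.205, 0.127 and 0.209 CPM in tomato+ VEC, against 468, 464 and 404 CPM in tomato- mTEC (log2 fold -11.15, SE 0.34, edgeR adjusted p = 5.27e-06). Keratins of stratified (Krt5) and of simple epithelium (Krt8, Krt18) were thus both present in tomato- mTEC. Of 9 tested desmosome genes 7 fell (77.8%, against 19.2% over all genes) and 1 rose (11.1%, against 11.8%). Their median log2 fold change was -7.07. Dsp, the linker of desmosomes to keratins, averaged 0.239 ± 0.255 CPM in tomato+ VEC and 279 ± 38.6 CPM in tomato- mTEC (log2 fold -10.20, SE 0.73, edgeR adjusted p = 8.38e-05). Dsg2 averaged 9.26 ± 2.35 CPM in tomato+ VEC and 389.5 ± 108 CPM in tomato- mTEC (log2 fold -5.39, SE 0.36, edgeR adjusted p = 6.19e-05). Jup, which also serves endothelial junctions, was the member that rose (mean 124 CPM in tomato+ VEC, 62.3 CPM in tomato- mTEC). Calls that did not last were those of Jup without any 1 library other than VEC 2 (edgeR adjusted p up to 0.14) and Ppl without any 1 library other than VEC 3 (edgeR adjusted p up to 0.117).

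Regulators of epithelial identity fell in 12 of 14 tested cases (85.7%, against 19.2% over all genes), with no higher call. The median log2 fold change was -8.59, or -8.21 with genes at 0 set to their bound. The 2 genes at 0 in tomato+ VEC had to differ once they passed the filter. Foxn1, the factor without which thymic epithelium does not form, had 0.102, 0 and 0.209 CPM in tomato+ VEC, against 46.9, 35.8 and 33.0 CPM in tomato- mTEC (edgeR adjusted p = 0.00114). Trp63, the p63 gene of stratified epithelium, had 0.205, 0.254 and 6.39 CPM in tomato+ VEC, against 119.8, 203 and 157 CPM in tomato- mTEC (log2 fold -6.11, SE 1.26, edgeR adjusted p = 0.00856). Ehf, an epithelial ETS factor, averaged 0.146 ± 0.0561 CPM in tomato+ VEC and 156 ± 27.6 CPM in tomato- mTEC (log2 fold -9.93, SE 0.49, edgeR adjusted p = 2.2e-05). Every one of these tomato+ VEC libraries lay below every tomato- mTEC library. Esrp1, a splicing factor of epithelium, averaged 0.103 ± 0.102 CPM in tomato+ VEC and 101 ± 13.1 CPM in tomato- mTEC (edgeR adjusted p = 0.000118).

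Genes of the medulla fell in 9 of 13 tested cases (69.2%, against 19.2% over all genes). Their median log2 fold change was -8.91, or -7.28 with genes at 0 set to their bound. They summed to 132 to 230 CPM in tomato+ VEC and 4750 to 6100 CPM in tomato- mTEC. The 3 genes at 0 in tomato+ VEC had to differ once they passed the filter. Aire, the regulator of tissue-restricted expression, had no count in tomato+ VEC and 166, 157 and 147 CPM in tomato- mTEC, at least 1420-fold lower (edgeR adjusted p = 9.92e-05). Fezf2, another regulator of such genes, had 0.102, 0.634 and 0.209 CPM in tomato+ VEC, against 261, 199.8 and 137 CPM in tomato- mTEC (log2 fold -9.31, SE 0.67, edgeR adjusted p = 8.66e-05). Spib had 0.205, 0.381 and 0.209 CPM in tomato+ VEC, against 106, 167 and 121 CPM in tomato- mTEC (log2 fold -8.91, SE 0.52, edgeR adjusted p = 3.93e-05). The receptor gene Tnfrsf11a (RANK) was not called, with 82.1, 45.0 and 7.65 CPM in tomato+ VEC, against 137, 193 and 179 CPM in tomato- mTEC (edgeR adjusted p = 0.0843). Relb and Nfkb2, of the non-canonical NF-kB pathway that these receptors use, were not called either (edgeR adjusted p = 0.16 and 0.21). Ltbr, the lymphotoxin receptor gene, was the member that rose (mean 51.1 CPM in tomato+ VEC, 13.3 CPM in tomato- mTEC). Calls were lost for Ltbr without any 1 library other than mTEC 3 (edgeR adjusted p up to 0.145), for Cd40 without VEC 2, mTEC 1 or mTEC 2 (edgeR adjusted p up to 0.072) and for Tnfrsf11b without mTEC 2 (edgeR adjusted p up to 0.0544).

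Tissue-restricted antigens, products of other organs that medullary epithelium also makes, fell in 7 of 7 tested cases (100%, against 19.2% over all genes). A further 7 genes of the list were too low to test and 1 was not in the table. The list summed to 1.53 to 8.38 CPM in tomato+ VEC and 1620 to 2140 CPM in tomato- mTEC. Its tested genes thus passed the filter mainly through tomato- mTEC, so their direction was largely set beforehand. The milk protein gene Csn2 (beta-casein) had 0, 0 and 0.105 CPM in tomato+ VEC, against 604, 582 and 711 CPM in tomato- mTEC (edgeR adjusted p = 7.86e-06). That is 1 count in tomato+ VEC and 20512 counts in tomato- mTEC. The gut lectin gene Reg3g averaged 0.146 ± 0.0561 CPM in tomato+ VEC and 855 ± 162 CPM in tomato- mTEC (log2 fold -12.39, SE 0.39, edgeR adjusted p = 5.27e-06). Tff3, a mucosal peptide, had no count in tomato+ VEC and 90.4, 34.5 and 29.7 CPM in tomato- mTEC (edgeR adjusted p = 0.00192). Ins2, the insulin gene, was near 0 in both (0.0690 ± 0.0598 CPM in tomato+ VEC and 0.303 ± 0.286 CPM in tomato- mTEC). The call of 1 member was lost, that of Crp without VEC 2 or mTEC 2 (edgeR adjusted p up to 0.0787). Genes of tuft cells, chemosensory epithelial cells found in the medulla, fell in 10 of 14 tested cases (71.4%, against 19.2% over all genes). The 4 of them at 0 in tomato+ VEC had to differ once they passed the filter. Dclk1 averaged 0.223 ± 0.109 CPM in tomato+ VEC and 44.0 ± 20.3 CPM in tomato- mTEC (log2 fold -7.55, SE 0.88, edgeR adjusted p = 0.000815). The channel gene Trpm5 averaged 0.111 ± 0.0135 CPM in tomato+ VEC and 21.1 ± 9.20 CPM in tomato- mTEC (edgeR adjusted p = 0.00172). With the 12 libraries scaled together, Dclk1 stood at 125 ± 83.5 CPM for tomato- VEC and 44.8 ± 20.6 CPM for tomato- mTEC, so it was not particular to epithelium. Trpm5 stood at 0.108 ± 0.106 CPM for tomato- VEC. Avil averaged 0.0682 ± 0.118 CPM in tomato+ VEC and 27.8 ± 10.1 CPM in tomato- mTEC (edgeR adjusted p = 0.00364). Pou2f3, the tuft cell regulator, was low in both (6.84 ± 11.8 CPM in tomato+ VEC and 9.73 ± 4.01 CPM in tomato- mTEC, edgeR adjusted p = 0.882). Single left-out libraries ended the calls of Il25 without any 1 VEC library (edgeR adjusted p up to 0.0581) and Chat without any 1 VEC library or mTEC 2 (edgeR adjusted p up to 0.0867).

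MHC class II genes had the highest summed level of the 39 lists in tomato- mTEC, at 0.146 ± 0.0321% of all counts in tomato+ VEC and 8.09 ± 0.458% in tomato- mTEC (SD, n = 3 each). Of 12 tested genes 10 fell (83.3%, against 19.2% over all genes) and none rose, with a median log2 fold change of -6.28. Cd74 had 298, 201 and 414 CPM in tomato+ VEC, against 50439, 53936 and 42086 CPM in tomato- mTEC (log2 fold -7.33, SE 0.35, edgeR adjusted p = 2.12e-05). H2-Aa had 132, 56.1 and 134 CPM in tomato+ VEC, against 11874, 11522 and 9932 CPM in tomato- mTEC (log2 fold -6.70, SE 0.41, edgeR adjusted p = 4.38e-05). H2-Eb1 had 21.2, 3.93 and 33.8 CPM in tomato+ VEC, against 3709.8, 3626 and 4084 CPM in tomato- mTEC (log2 fold -7.59, SE 0.79, edgeR adjusted p = 0.000509). Class II RNA was low but above 0 in each tomato+ VEC library. Ctsl, a protease of the class II pathway, was not called (997 ± 119 CPM in tomato+ VEC and 1778 ± 859 CPM in tomato- mTEC, edgeR adjusted p = 0.0959). Calls were lost for Ciita without any 1 mTEC library or VEC 1 (edgeR adjusted p up to 0.0748), for H2-DMa without any 1 library other than VEC 2 (edgeR adjusted p up to 0.113) and for Ctss without any 1 library other than VEC 1 (edgeR adjusted p up to 0.076).

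Of 13 tested class I presentation genes 3 rose (23.1%, against 11.8% over all genes) and none fell (against 19.2%). Their median log2 fold change was 0.40. The 10 not called are 76.9% of the list, near the 69.1% over all genes. B2m had 13216, 13915 and 14909 CPM in tomato+ VEC, against 10493, 11726 and 11585 CPM in tomato- mTEC (edgeR adjusted p = 0.17). H2-K1 averaged 2641 ± 529.6 CPM in tomato+ VEC and 1986 ± 181 CPM in tomato- mTEC (edgeR adjusted p = 0.18). The peptide transporter gene Tap2 rose, at 112 ± 15.8 CPM in tomato+ VEC and 39.6 ± 4.96 CPM in tomato- mTEC (edgeR adjusted p = 0.00805). Tapbp rose as well, at 336 ± 18.7 CPM in tomato+ VEC and 185 ± 8.97 CPM in tomato- mTEC (edgeR adjusted p = 0.0103). Psmb8, of the immunoproteasome, was the third (mean 479 CPM in tomato+ VEC, 252 CPM in tomato- mTEC), and its call was lost without mTEC 1 (edgeR adjusted p up to 0.0525). Among ligands that steer T-cell activation, 6 of 10 tested genes fell (60%, against 19.2% over all genes) and 1 rose (10%, against 11.8%). Their median log2 fold change was -3.39. The co-stimulators Cd80 and Cd86 and the PD-1 ligand gene Pdcd1lg2 had no count in tomato+ VEC and means of 41.1, 19.1 and 45.3 CPM in tomato- mTEC (edgeR adjusted p = 0.00122, 0.0121 and 0.00197, in that order). These genes had to differ once they passed the filter. Icosl averaged 19.3 ± 19.2 CPM in tomato+ VEC and 348 ± 81.3 CPM in tomato- mTEC (log2 fold -4.17, SE 0.75, edgeR adjusted p = 0.00555). Pvr, a nectin-like ligand, rose, at 106 ± 78.5 CPM in tomato+ VEC and 5.21 ± 1.18 CPM in tomato- mTEC (log2 fold 4.34, SE 0.64, edgeR adjusted p = 0.00239). The call of Cd274, the other PD-1 ligand gene (mean 123 CPM in tomato+ VEC, 226 CPM in tomato- mTEC), was lost without any 1 library other than VEC 1 (edgeR adjusted p up to 0.163). The sixth lower gene was Cd40, whose call is qualified above.

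**Figure D3:**
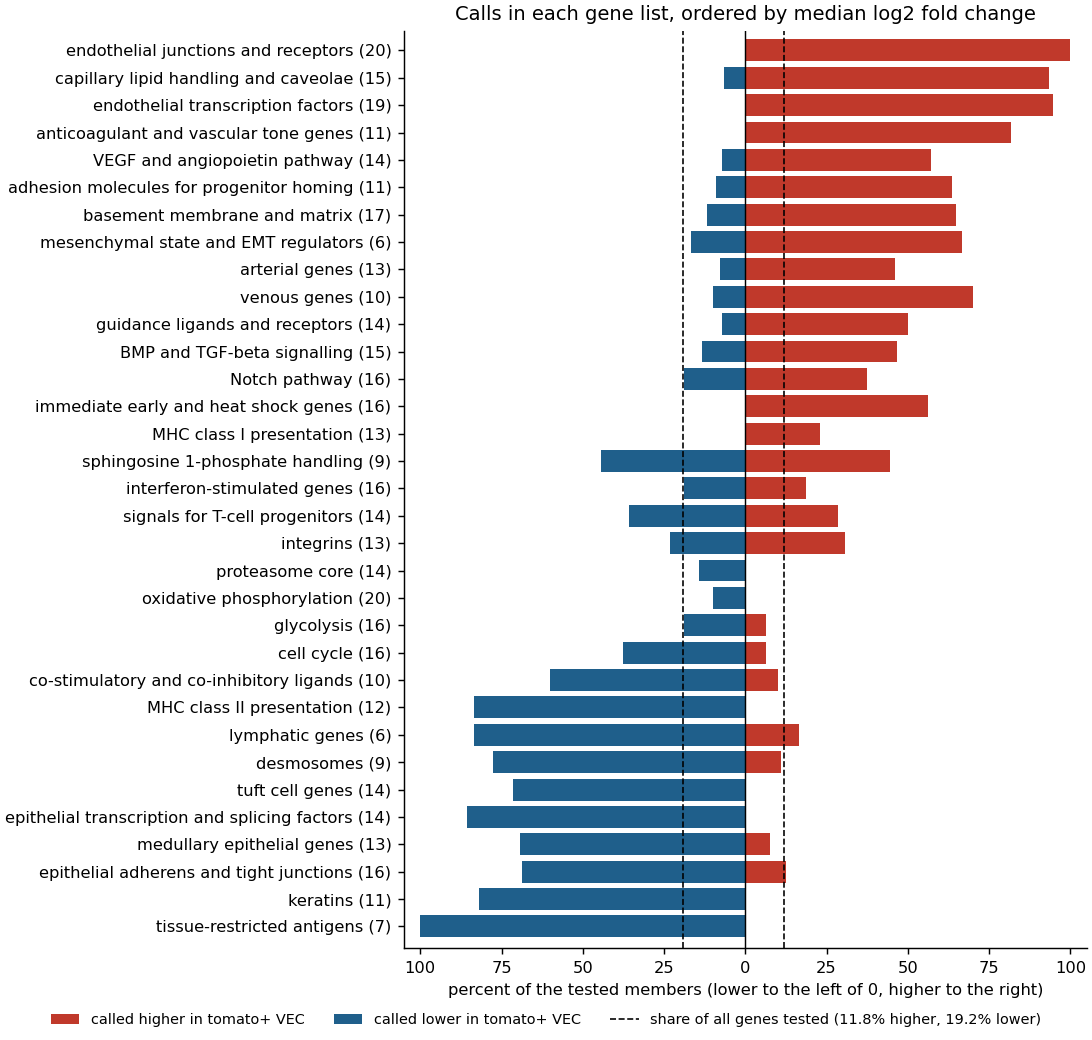
Percent of tested members called higher in tomato+ VEC (right) or lower (left) in each gene list, ordered by median log2 fold change, with the number tested in brackets and dashed lines at the shares over all genes (11.8% higher, 19.2% lower). Endothelial lists reach 100% higher at the top and tissue-restricted antigens 100% lower at the bottom, with metabolic lists near the dashed lines or within them (the progenitor signal list includes Kitl here).

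Genes of metabolism and protein turnover are read against the 69.1% of all genes that were not called. Of 20 tested oxidative phosphorylation genes 18 (90.0%) were not called (median log2 fold change -0.22). The ATP synthase genes Atp5a1 (312 ± 81.5 CPM in tomato+ VEC and 665 ± 14.5 CPM in tomato- mTEC, edgeR adjusted p = 0.00869) and Atp5b (404 ± 117 CPM in tomato+ VEC and 883 ± 106 CPM in tomato- mTEC, edgeR adjusted p = 0.0102) fell. Of 14 proteasome core genes 12 (85.7%) were not called (median log2 fold change -0.19). The calls of the other 2, both lower, were lost for Psma6 without any 1 library other than VEC 3 (edgeR adjusted p up to 0.139) and for Psmb1 without any 1 library other than VEC 3 (edgeR adjusted p up to 0.126). Of 16 glycolysis genes 1 rose, 3 fell and 12 (75%) were not called, near the share over all genes. Eno1 fell (103 ± 19.6 CPM in tomato+ VEC and 227 ± 10.8 CPM in tomato- mTEC, edgeR adjusted p = 0.0089). Not kept were the calls of Hk2 without VEC 2, VEC 3, mTEC 2 or mTEC 3 (edgeR adjusted p up to 0.102) and Pgk1 without any 1 of the 6 libraries (edgeR adjusted p up to 0.176), both lower, and of Ldha without any 1 mTEC library or VEC 2 (edgeR adjusted p up to 0.0784), which was higher. The RNAs that were abundant and least different were Actb, Ubb, Ifitm3, H2-L and Gm1821. Actb averaged 12773 ± 1112 CPM in tomato+ VEC and 13575 ± 1651 CPM in tomato- mTEC (edgeR adjusted p = 0.757). Ubb, a ubiquitin gene, averaged 4569.6 ± 386 CPM in tomato+ VEC and 4956 ± 489.7 CPM in tomato- mTEC (edgeR adjusted p = 0.662). Ifitm3, an interferon-induced membrane protein gene, averaged 3286 ± 194 CPM in tomato+ VEC and 2825 ± 436 CPM in tomato- mTEC (edgeR adjusted p = 0.419). H2-L and Gm1821 resemble other genes of their families, so their counts are uncertain.

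Immediate early and heat shock genes rose in 9 of 16 tested cases (56.2% against 11.8% over all genes), and none fell. The orphan receptor gene Nr4a1 had 187, 327 and 255 CPM in tomato+ VEC, against 15.4, 23.1 and 32.1 CPM in tomato- mTEC (log2 fold 3.44, SE 0.38, edgeR adjusted p = 0.000689). Ier3 had 1649, 1689.8 and 966 CPM in tomato+ VEC, against 80.4, 153 and 153 CPM in tomato- mTEC (log2 fold 3.48, SE 0.36, edgeR adjusted p = 0.000479). Egr1 had 1666, 1268 and 1128 CPM in tomato+ VEC, against 249, 248 and 489 CPM in tomato- mTEC (log2 fold 2.04, SE 0.33, edgeR adjusted p = 0.00342). Fos was abundant in both and rose by 1.13 on the log2 scale (edgeR adjusted p = 0.0111), while Atf3 (edgeR adjusted p = 0.777) and Hspa1a (edgeR adjusted p = 0.254) were not called. Such genes respond to cell dissociation as well as to signals, and the part of handling in these values was not tested. The call of 1 member was lost, that of Junb without mTEC 1 or mTEC 2 (edgeR adjusted p up to 0.069). Of 16 tested interferon-stimulated genes 3 rose and 3 fell (18.8% each, against 11.8% higher and 19.2% lower over all genes), and 10 were not called. The antiviral gene Rsad2 rose (309 ± 94.7 CPM in tomato+ VEC and 32.8 ± 29.6 CPM in tomato- mTEC, edgeR adjusted p = 0.00981). Usp18, which dampens interferon signalling, fell (211 ± 84.0 CPM in tomato+ VEC and 1156 ± 71.5 CPM in tomato- mTEC, edgeR adjusted p = 0.00101).

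Proliferation genes fell in 6 of 16 tested cases and rose in 1 (median log2 fold change -2.44). The shares are 37.5% lower, against 19.2% over all genes, and 6.25% higher, against 11.8%. Aurkb had 0, 0 and 0.105 CPM in tomato+ VEC, against 32.4, 17.9 and 23.9 CPM in tomato- mTEC (edgeR adjusted p = 0.00211). Bub1 had 0, 0 and 0.209 CPM in tomato+ VEC, against 32.9, 23.8 and 32.1 CPM in tomato- mTEC (edgeR adjusted p = 0.00307). Rrm2, a subunit of ribonucleotide reductase, averaged 1.06 ± 1.83 CPM in tomato+ VEC and 137 ± 30.6 CPM in tomato- mTEC (log2 fold -6.97, SE 1.48, edgeR adjusted p = 0.00919). Pcna (65.9 ± 17.5 CPM in tomato+ VEC and 76.9 ± 3.24 CPM in tomato- mTEC, edgeR adjusted p = 0.672) and Top2a (5.64 ± 9.45 CPM in tomato+ VEC and 108 ± 57.3 CPM in tomato- mTEC, edgeR adjusted p = 0.0848) were not called. The cell cycle inhibitor gene Cdkn1a rose, at 321 ± 108 CPM in tomato+ VEC and 55.8 ± 5.83 CPM in tomato- mTEC (log2 fold 2.52, SE 0.30, edgeR adjusted p = 0.00093). Calls were lost for Mki67 without any 1 library other than VEC 3 (edgeR adjusted p up to 0.159) and for Cdk1 without VEC 1 or mTEC 1 (edgeR adjusted p up to 0.073).

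Markers of other cell types were also measured. The summed levels of 4 of the 5 lists were higher in every tomato- mTEC library than in any tomato+ VEC library, and those of the B cell list overlapped. The 13 thymocyte markers summed to 4.69 to 21.8 CPM in tomato+ VEC and 24.3 to 44.4 CPM in tomato- mTEC, with Cd8a at 0 in both and Cd3e, Cd3g, Cd2 and Themis at 0 in tomato+ VEC. The 9 myeloid markers summed to 18.4 to 54.4 CPM in tomato+ VEC and 384 to 407 CPM in tomato- mTEC, most of it Lyz2. Lyz2, a lysozyme gene, averaged 3.06 ± 4.88 CPM in tomato+ VEC and 346 ± 39.5 CPM in tomato- mTEC (edgeR adjusted p = 0.00709), and its call was lost with all 12 libraries in the fit (edgeR adjusted p = 0.0671). The leukocyte marker Ptprc averaged 0.111 ± 0.103 CPM in tomato+ VEC and 3.28 ± 4.23 CPM in tomato- mTEC. The 10 mesenchymal and mural markers summed to 22.0 to 55.7 CPM in tomato+ VEC and 704 to 967 CPM in tomato- mTEC. Acta2, the smooth muscle actin gene, averaged 3.64 ± 1.16 CPM in tomato+ VEC and 294 ± 67.6 CPM in tomato- mTEC (log2 fold -6.33, SE 0.40, edgeR adjusted p = 5.19e-05). Dcn, a matrix proteoglycan of fibroblasts, averaged 8.28 ± 5.02 CPM in tomato+ VEC and 237 ± 126 CPM in tomato- mTEC (log2 fold -4.84, SE 0.63, edgeR adjusted p = 0.00134). Pdgfrb (0.214 ± 0.0902 CPM in tomato+ VEC and 9.84 ± 5.93 CPM in tomato- mTEC, edgeR adjusted p = 0.00709) and the pericyte gene Rgs5 fell too, the call of Rgs5 being lost without mTEC 2 (edgeR adjusted p up to 0.0536). That of Pdgfrb was lost with the replicate number as a block (edgeR adjusted p = 0.0525). Col1a1 was too low to test, and Col1a2 (edgeR adjusted p = 0.502) and Col3a1 (edgeR adjusted p = 0.222) were not called. Platelet and erythroid markers summed to 3.25 to 18.8 CPM in tomato+ VEC and 26.0 to 86.5 CPM in tomato- mTEC. B cell markers summed to 0.205 to 9.13 CPM in tomato+ VEC and 7.11 to 37.8 CPM in tomato- mTEC. These lists moved with the groups, and their part in the lower genes was not tested.

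**Figure D4:**
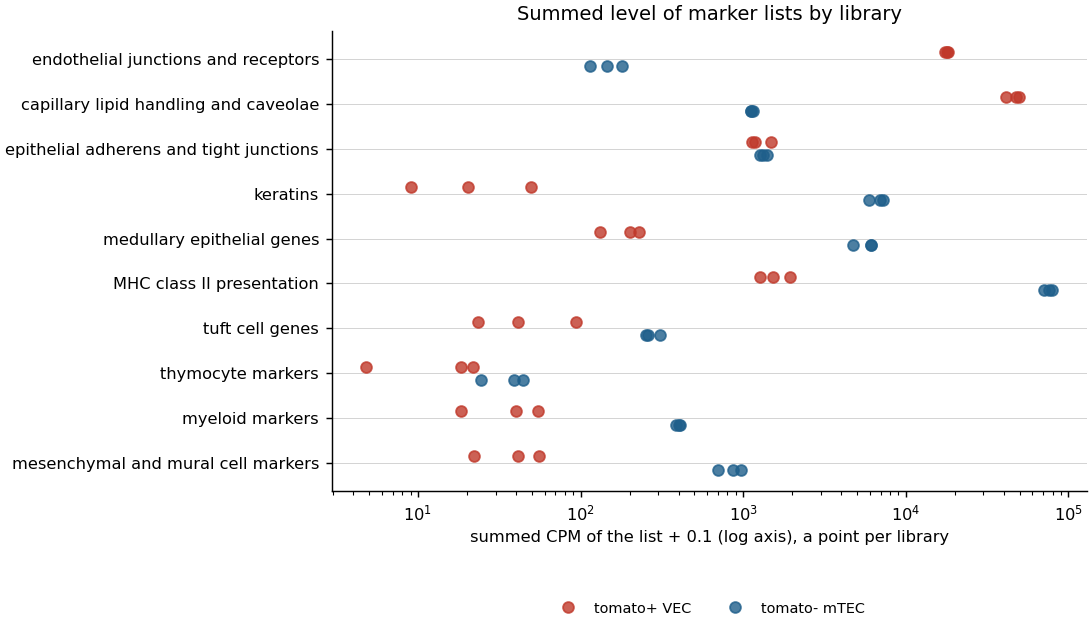
Summed CPM + 0.1 (log axis) of 10 gene lists in each of 3 tomato+ VEC libraries (upper points) and 3 tomato- mTEC libraries (lower points). Endothelial junction genes reach 17500 to 18100 CPM in tomato+ VEC against 114 to 180 CPM in tomato- mTEC, MHC class II genes reach 1270 to 1950 CPM in tomato+ VEC against 70400 to 79500 CPM in tomato- mTEC, and the epithelial junction list, which holds Tjp1 and F11r, overlaps.

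Cortical genes were measurable in the medullary libraries. Of 7 tested cortical markers 5 fell in tomato+ VEC (71.4%, against 19.2% over all genes) and 1, Cxcl12, rose (14.3%, against 11.8%). Tbata had 0.307, 0.127 and 0.524 CPM in tomato+ VEC, against 987, 927 and 735 CPM in tomato- mTEC (log2 fold -11.34, SE 0.44, edgeR adjusted p = 7.39e-06). The thymoproteasome gene Psmb11 averaged 0.187 ± 0.164 CPM in tomato+ VEC and 26.0 ± 11.3 CPM in tomato- mTEC (log2 fold -7.04, SE 1.25, edgeR adjusted p = 0.00519). The protease gene Prss16 averaged 0.181 ± 0.116 CPM in tomato+ VEC and 17.5 ± 2.54 CPM in tomato- mTEC (log2 fold -6.49, SE 1.01, edgeR adjusted p = 0.00302). Enpep, the gene of the Ly51 used to sort cortical from medullary cells, did not pass the filter on low counts and was not tested. It had 0, 0.381 and 0.524 CPM in tomato+ VEC, against 15.5, 0 and 35.3 CPM in tomato- mTEC, whose libraries thus varied widely. With the 12 libraries scaled together, Psmb11 stood at 0.191 ± 0.167 CPM for tomato+ VEC, 0.184 ± 0.0677 CPM for tomato- VEC, 626 ± 96.9 CPM for tomato+ cTEC and 26.5 ± 11.4 CPM for tomato- mTEC (SD, n = 3 each). In the same scaling Prss16 stood at 0.185 ± 0.119 CPM for tomato+ VEC, 0.147 ± 0.0666 CPM for tomato- VEC, 1075 ± 245 CPM for tomato+ cTEC and 17.8 ± 2.66 CPM for tomato- mTEC.

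The naming rule takes the 12 largest fitted changes in each direction, and where a gene had no count on one side its fold is only a bound. Among the higher genes, St8sia4, which adds polysialic acid to surface proteins, had 346, 484 and 144 CPM in tomato+ VEC and no count in tomato- mTEC, at least 3370-fold higher (edgeR adjusted p = 0.000392). The C-type lectin gene Clec1a had 301, 253 and 64.7 CPM in tomato+ VEC and no count in tomato- mTEC, at least 2180-fold higher (edgeR adjusted p = 0.000939). Esm1, the proteoglycan of tip cells known as endocan, had 42.5, 70.8 and 97.7 CPM in tomato+ VEC and no count in tomato- mTEC, at least 748-fold higher (edgeR adjusted p = 0.00074). The junction gene Jam2 had 772, 913 and 548 CPM in tomato+ VEC, against 0, 0.340 and 0.316 CPM in tomato- mTEC (log2 fold 11.65, SE 0.67, edgeR adjusted p = 3.53e-05). Btnl9, Nepn, Klhl4, the homeobox gene Lhx6, Scgb3a1 and Smagp completed the list with Hhex and Kdr, and each of the first 6 of these had no count in tomato- mTEC (bounds of at least 450 to 1030-fold).

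Among the lower genes, Wfdc18, a secreted protein of the whey acidic protein family, had 0.102, 0.254 and 0.209 CPM in tomato+ VEC, against 2824, 3943 and 2660 CPM in tomato- mTEC (log2 fold -13.96, SE 0.41, edgeR adjusted p = 5.27e-06). The LIM protein gene Crip3 had no count in tomato+ VEC and 297, 356 and 266 CPM in tomato- mTEC, at least 2730-fold lower (edgeR adjusted p = 5.22e-05). Skint1, which selects a skin-homing gamma delta T-cell population in the mouse thymus, had no count in tomato+ VEC and 224, 219 and 191 CPM in tomato- mTEC, at least 1900-fold lower (edgeR adjusted p = 6.88e-05). Hormone genes stood in this group: Calcb, a calcitonin gene-related peptide, had 0.102, 0 and 0 CPM in tomato+ VEC, against 824, 1084 and 769 CPM in tomato- mTEC (edgeR adjusted p = 7.39e-06). Fgf21, a fasting hormone of liver, had 0, 0 and 0.105 CPM in tomato+ VEC, against 773, 1024 and 541 CPM in tomato- mTEC (edgeR adjusted p = 1.67e-05). The airway protein gene Bpifa1 had no count in tomato+ VEC and 23.4, 447 and 16.2 CPM in tomato- mTEC (edgeR adjusted p = 0.0118). The neuropeptide gene Gal had no count in tomato+ VEC and 72.5, 410.5 and 1.58 CPM in tomato- mTEC, so the tomato- mTEC libraries varied widely, and its call was lost without VEC 1 (edgeR adjusted p up to 0.0502). With Epcam and Csn2, given above, Ly6d and Fam134b belonged to this group, the last pair also without a count in tomato+ VEC (bounds of at least 2280 and 2380-fold).

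The other 2 sorted populations place these differences. Tomato- VEC share the endothelial gate and lack the reporter signal, and tomato+ cTEC are cortical epithelial cells with it. Each of them shares a gate with both populations compared. With the 12 libraries scaled together, Kitl stood at 1043 ± 436 CPM for tomato+ VEC, 438 ± 40.7 CPM for tomato- VEC, 222 ± 35.3 CPM for tomato+ cTEC and 22.0 ± 15.9 CPM for tomato- mTEC (SD, n = 3 each). By mean log2 level, tomato- VEC lay nearer to tomato+ VEC than to tomato- mTEC for 83.5% of the 1584 higher genes and 79.9% of the 2580 lower genes. Tomato+ cTEC lay nearer to tomato+ VEC for 23.6% of the higher and 39.0% of the lower genes. These shares are descriptions, since the genes were called on the populations they are measured against.

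The order of Kitl (tomato+ VEC, tomato- VEC, tomato+ cTEC, tomato- mTEC, from high to low mean) was held by 687 of the 1584 higher genes (43.4%) and by 1273 of all 13467 tested genes (9.45%). Higher genes were called for the ends of this order, so their larger share was in part set beforehand and is a description. In 68 of the higher genes no library overlapped the next population, Kitl included, although its own RNA set the order. They include the neuropilin gene Nrp1, at 1378 ± 142 CPM for tomato+ VEC, 588 ± 62.5 CPM for tomato- VEC, 62.4 ± 31.5 CPM for tomato+ cTEC and 19.0 ± 5.00 CPM for tomato- mTEC. They also include Cav1, at 5171 ± 251 CPM for tomato+ VEC, 2445 ± 184 CPM for tomato- VEC, 253 ± 185 CPM for tomato+ cTEC and 32.9 ± 14.9 CPM for tomato- mTEC. Il7 ran close to the reverse, at 0.142 ± 0.164 CPM for tomato+ VEC, 12.1 ± 9.65 CPM for tomato- VEC, 478 ± 71.5 CPM for tomato+ cTEC and 371 ± 162 CPM for tomato- mTEC. Cd74 stood at 311 ± 108 CPM for tomato+ VEC, 1077 ± 484 CPM for tomato- VEC, 27177 ± 1806 CPM for tomato+ cTEC and 49771 ± 6417 CPM for tomato- mTEC. Cdh1 and Krt8 were under 1 CPM in each endothelial library and at 154 CPM or more in each epithelial library, and no order within those pairs was tested.

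**Figure D5:**
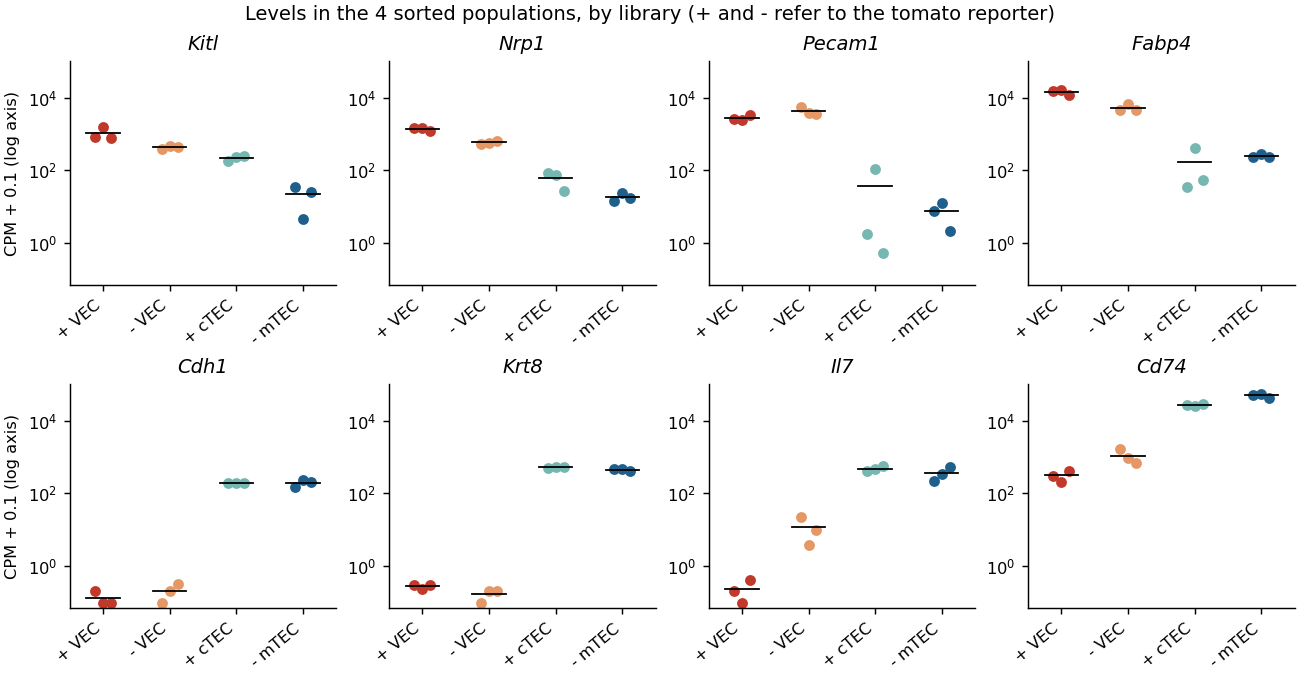
CPM + 0.1 (log axis) of 8 genes in 3 libraries of each of the 4 sorted populations, with a bar at each mean. Kitl and Nrp1 step down from tomato+ VEC to tomato- mTEC, Cdh1 and Krt8 separate endothelium from epithelium, and Il7 and Cd74 are lowest in tomato+ VEC.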

How the data were processed

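Per the labels' protocols, an ultra-low input SMARTer kit amplified the poly(A) RNA of sorted cells. Alignment tool and build are TopHat2 2.0.10 and mm9, per the submitters' processing notes. How reads were counted, with which annotation and strand setting, is not stated in the sources used. The deposited table holds raw read counts per gene, per the file headers. It also holds deposited RPKM values, which equalled count over column total and gene length for 180417 of 180417 values tested, within 1e-06. RPKM was used only to compare levels between genes.

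Counts of the 6 libraries were filtered with filterByExpr (minimum count 10), scaled by TMM and fitted with edgeR 4.0.16 in R 4.3.3 by quasi-likelihood, with 4 residual degrees of freedom and a common dispersion of 0.572 (biological coefficient of variation 0.756). Benjamini-Hochberg adjusted p under 0.05 over all 13467 genes was called, without a fold threshold. Depth was 8388869 to 11807130 counts per library. For a gene at 0, the fold is a bound against 3 counts over the group, which is 0.110 CPM in tomato+ VEC and 0.0937 CPM in tomato- mTEC. With 1 to 3 counts, the ratio has a 95% exact counting interval. Floors and intervals cover counting error only. Among tested genes 48 share all their counts with another symbol.

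The comparison and its 39 gene lists (489 genes, 487 in the table) were chosen with earlier results of these data known, so lists have counts and medians and no p of their own. Named genes were Kitl, Kit, Pecam1, Epcam and Enpep, the 12 largest called changes in each direction (at least 20 CPM, no overlap), up to 3 called members with the smallest p per list and direction, the 5 highest RPKM per population, and 5 abundant genes (at least 200 CPM) with an absolute log2 fold change under 0.25. Other list members are named where their list is counted. Alternatives were DESeq2 1.42.0, limma 3.58.1 voom, all 12 libraries, relative log expression scaling, the replicate number as a block, no filter or one of 5 CPM in 3 libraries, a log2 fold threshold of 1, robust dispersions, and leaving out each library. Scripts were tested on simulated counts. Replicate numbers share no stated source. Promoter sequences were matched by symbol for the 4 genes printed. Some genes that the naming rule or the lists select are not reported here.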

Additional observations from a re-analysis of the deposited data

How the results depend on the processing

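Counts of higher and lower genes were 1584 and 2580. Without the low-count filter they were 1571 and 2396, with at least 5 CPM in 3 libraries 1422 and 1728, with limma voom 1502 and 2953, with DESeq2 1964 and 3869, with all 12 libraries in the fit 1831 and 2872, with relative log expression scaling 1454 and 2691, with robust dispersions 1574 and 2562, and with a log2 fold threshold of 1 they were 1505 and 2541. Leaving out each library gave 1152 to 1679 higher and 2459 to 2810 lower genes. No gene was called in the opposite direction under any of these settings. Relative log expression scaling moved the median log2 fold change of all genes to -0.22 and limma voom to -0.42, against -0.11, so small changes are relative to that centre. With the replicate number as a block, 1169 genes were higher and 1704 lower. Deviations of same-numbered libraries correlated at -0.006, 0.017 and 0, so the numbers gave no sign of a pairing. Of the 156 named genes that were called, 138 kept the call in each fit without a library and 134 under every setting run. Of 60 list counts, 19 moved by more than 1.5 times under at least 1 setting. With 3 libraries a group and a biological coefficient of variation of 0.756, small differences between genes of low count are not detectable.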

Other observations

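Gene families were also taken by the root of their symbol, where at least 15 members were tested, and those given here were chosen after their values were seen. Some members belong to the lists above. Of 17 tested CC chemokine genes (Ccl), which attract leukocytes, 16 fell in tomato+ VEC and 1 was not called (94.1% lower, against 19.2% over all genes). Without Ccl19, Ccl21a and Ccl25, which are in the lists, 13 of 14 fell. Most of the genes that fell were near 0 in tomato+ VEC and passed the filter mainly through tomato- mTEC. Their direction was thus largely set beforehand. Ccl11, the eotaxin gene, averaged 0.853 ± 0.580 CPM in tomato+ VEC and 886 ± 150.1 CPM in tomato- mTEC (SD, n = 3 each; edgeR adjusted p = 2.26e-05). Ccl20, a ligand of Ccr6, averaged 0.0690 ± 0.0598 CPM in tomato+ VEC and 153 ± 122 CPM in tomato- mTEC (edgeR adjusted p = 0.00051), and Ccl2, the monocyte attractant, was the gene not called (6.97 ± 6.07 CPM in tomato+ VEC and 55.9 ± 32.8 CPM in tomato- mTEC, edgeR adjusted p = 0.0864). Ccl21a, Ccl21b and Ccl21c have near-identical sequences and count as 3 of the 16.

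Of 18 tested tetraspanins, small scaffold proteins of the membrane, 9 rose (50%, against 11.8% over all genes) and 5 fell (27.8%, against 19.2%) in tomato+ VEC. None of them is in a list. Tspan7 averaged 1701 ± 208 CPM in tomato+ VEC and 26.5 CPM in tomato- mTEC (log2 fold change 6.00, SE 0.44, edgeR adjusted p = 8.88e-05), and Tspan4 averaged 308 ± 22.7 CPM in tomato+ VEC and 9.37 ± 3.05 CPM in tomato- mTEC (log2 fold change 5.03, SE 0.33, edgeR adjusted p = 6.18e-05). Tspan8 had no count in tomato+ VEC and a mean of 36.2 CPM in tomato- mTEC (edgeR adjusted p = 0.00316), and it had to differ once it passed the filter. Of 29 tested symbols that begin with Col, 28 of them collagen chains, 4 rose (13.8%, against 11.8% over all genes) and 16 fell (55.2%, against 19.2%). Of the 23 outside the lists 1 rose and 16 fell. These 16 were near 0 in tomato+ VEC and passed the filter mainly through tomato- mTEC. Their direction was thus largely set beforehand. The risers were Col4a1, Col4a2, Col15a1 and Col8a1, a chain of short-chain collagen (68.6 ± 40.1 CPM in tomato+ VEC and 0.526 ± 0.531 CPM in tomato- mTEC, edgeR adjusted p = 0.0025). The microfibrillar chain gene Col6a1 had the highest level among the fallers (0.736 ± 0.532 CPM in tomato+ VEC against 263 CPM in tomato- mTEC, edgeR adjusted p = 8.46e-05). Not called were 274 of 303 zinc finger genes (Zfp, 90.4%), 45 of 48 Rpl genes (93.8%) and 41 of 46 Rps genes (89.1%), against 69.1% of all genes.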
